A study of Sus scrofa with 8 samples.

Results

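MBP, OPALIN, APOA5 and OXT are genes known for their work in brain, liver and hypothalamus, and each has a probe of high signal on arrays of sow blood. They were examined through all their probes: every non-control probe whose assigned RefSeq transcript belongs to one of the 4 genes was taken, which gave 4 of the 2389 genes named on the array and 13 of its 43603 probes, 8 for MBP, 2 each for OPALIN and APOA5 and 1 for OXT. The genes were chosen by the processed signal of their brightest probe on these arrays, so brightness is given here as a description with no test. The difference between pregnant and non-pregnant sows is no part of the rule.

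The samples were whole blood of 8 sows (Sus scrofa) of the fifth parity, taken 14 days after insemination from 4 sows that proved pregnant and 4 that did not. Lysis followed soon after the draw, and the Cy3-labelled cRNA of each sow was hybridised alone to a porcine Agilent array. Per the design text, the sows came as 3 pairs of half-sibs and an unrelated pair, and whether replicate numbers mark these pairs is not given. Replicates 1 and 3 of both groups lay on 1 slide and replicates 2 and 4 on the other. Whole blood is a mixture, so a lower signal from fewer cells of a type and one from less RNA per cell cannot be told apart.

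MBP encodes myelin basic protein, which holds the layers of the myelin sheath together. The same locus also gives longer golli transcripts, which lymphocytes and other cells of the blood lineage are known to make. OPALIN is a membrane glycoprotein of myelinating oligodendrocytes. APOA5 is an apolipoprotein made by the liver that promotes clearance of plasma triglyceride, and OXT encodes the precursor of oxytocin, made by hypothalamic neurons and, in several species, by ovary and uterus.

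Levels are log2 processed signals relative to the 75th percentile of the same array, so that 0 is that percentile. That percentile was 142 signal units on pregnant replicate 2 and 175 to 296 on the other 7 arrays. The share of probes well above background ran from 61.7% to 69.3% per array, and 0 spots were saturated. Defining genes of blood cells were present: the brightest probe was well above background on all 8 arrays for 8 of 8 measured T cell genes, 3 of 3 B cell genes, 6 of 6 monocyte genes, 5 of 6 neutrophil genes and 5 of 5 platelet genes. Of the 2 measured erythroid genes, this held for KLF1, while TFRC was well above background on 0 arrays. Among the 13 probes of the 4 genes, 11 were well above background on all 8 arrays, a state reached by 54.5% of all probes, and the other 2 on none (0 arrays).

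One MBP probe was far brighter than the other 7, although all 8 are assigned to the same transcript. Probe A_72_P721178 read 7.47, 10.78, 9.97 and 7.84 in pregnant replicates 1 to 4 and 8.16, 9.60, 9.72 and 8.17 in non-pregnant replicates 1 to 4. It was highest on replicates 2 and 3 of both groups, and the groups overlapped. Its processed signal ran from 50566 to 250267 against a local background of 30 to 41, and 168 probes had a higher mean level over the 8 arrays.

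The other 7 MBP probes were also well above background on all 8 arrays, at moderate levels. A_72_P740675 and A_72_P065001 were the brightest of them, at means of 0.43 ± 0.14 and 0.35 ± 0.19 (SD, n = 8 arrays), followed by A_72_P761755 at -0.71 ± 0.24, A_72_P762749 at -1.29 ± 0.26, A_72_P758347 at -1.44 ± 0.22, A_72_P749244 at -1.80 ± 0.26 and A_72_P795270 at -2.54 ± 0.31. The means of A_72_P740675 and A_72_P065001 lay within their spread of each other, as did those of A_72_P762749 and A_72_P758347. Within arrays, however, A_72_P762749 was higher than A_72_P758347 on every one. As an example of values by sow, A_72_P065001 read 0.52, -0.03, 0.33 and 0.50 in pregnant replicates 1 to 4 and 0.44, 0.17, 0.38 and 0.46 in non-pregnant replicates 1 to 4. On average, these 7 probes lay between the percentiles 51.8 and 78.2 of an array's probes, and the bright one at the percentile 99.5.

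For OPALIN, 1 probe was bright and the other was not detected. A_72_P489955 read 4.28, 8.64, 7.57 and 3.90 in pregnant replicates 1 to 4 and 4.04, 6.15, 6.62 and 3.46 in non-pregnant replicates 1 to 4. Again replicates 2 and 3 of both groups were the high arrays and the groups overlapped. The second probe, A_72_P077391, lay between -7.04 and -6.10, with a processed signal of 1.74 to 2.47, and was well above background on 0 arrays. On the same arrays the first probe gave 1929 to 56628 signal units.

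APOA5 had the same arrangement. A_72_P042446 read 3.55, 8.67, 7.63 and 3.50 in pregnant replicates 1 to 4 and 4.40, 6.66, 6.77 and 3.42 in non-pregnant replicates 1 to 4. The high arrays were those of OPALIN and of the bright MBP probe, and the groups overlapped. The second probe, A_72_P440906, lay between -6.97 and -4.99 and was well above background on 0 arrays, with a processed signal of 1.92 to 7.00 against 1883 to 57806 for the first.

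OXT was read by a single probe, so no second reading of the transcript exists here. A_72_P442402 gave 5.51, 6.94, 6.26 and 4.68 in pregnant replicates 1 to 4 and 5.50, 5.75, 5.90 and 6.09 in non-pregnant replicates 1 to 4, with a processed signal of 5709 to 17740. Pregnant replicate 2 was the highest array and pregnant replicate 4 the lowest, while the 4 non-pregnant arrays lay close together within the pregnant range. By mean level the bright probes came in the order MBP at 8.96 ± 1.20, OXT at 5.83 ± 0.66, OPALIN at 5.58 ± 1.93 and APOA5 at 5.57 ± 2.10 (SD, n = 8), and the last 3 did not differ beyond their spread. Such an order is one of probe signals and not of transcript amounts, since probes bind their targets with different efficiency.

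**Figure D1:**
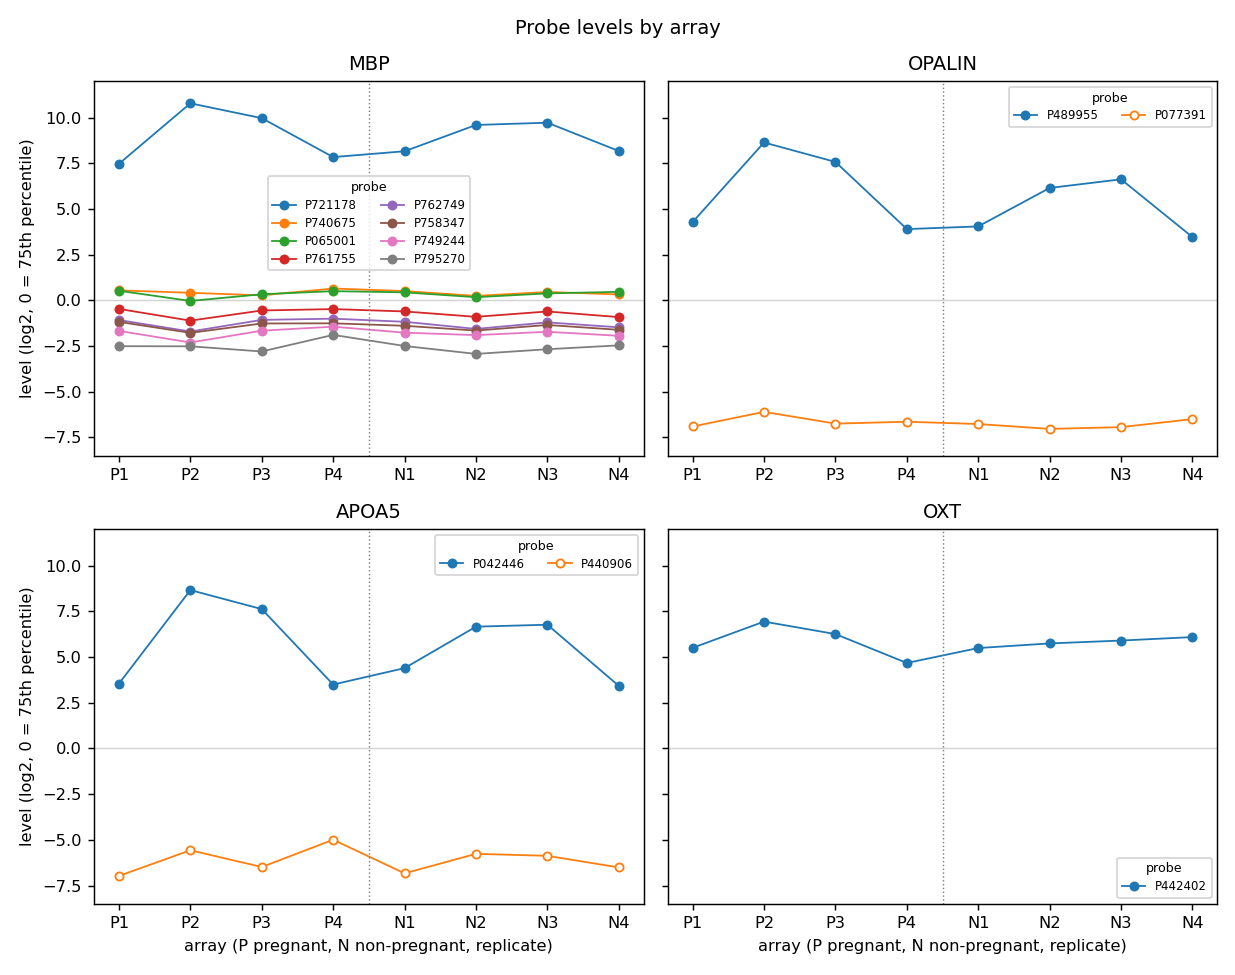
Level of every probe on every array (log2, 0 is the 75th percentile of the array), in 1 panel per gene; P and N with a number are the pregnant and non-pregnant replicates, filled points are probes well above background on all 8 arrays, open points are probes well above background on none, and the lines only join the values of 1 probe. The brightest MBP probe lies between 7.47 and 10.78 while the other 7 stay between -2.93 and 0.65, and the second probes of OPALIN and APOA5 reach at most -4.99.

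**Figure D2:**
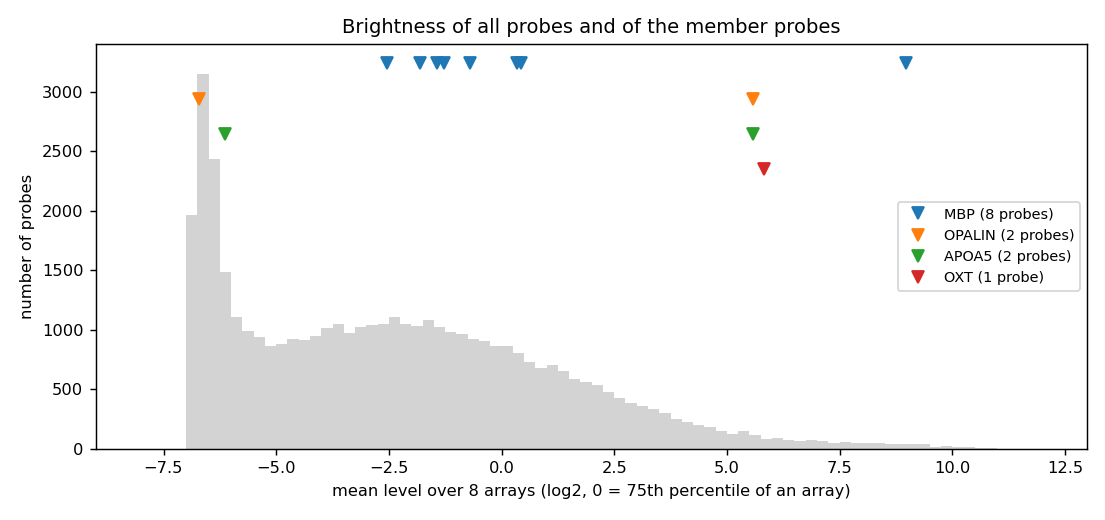
Number of probes at each mean level over the 8 arrays (grey, log2 relative to the 75th percentile), with triangles at the mean levels of the 13 probes; the height of a triangle only separates the genes. The brightest probes of OPALIN, APOA5 and OXT lie at 5.57 to 5.83 and that of MBP at 8.96, in the sparse upper end of the distribution, while the second probes of OPALIN and APOA5 lie in the peak at the left.

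The gap between probes of 1 gene was measured within each array, as the level of the brightest probe minus that of another. The bright MBP probe exceeded A_72_P740675, the next brightest, by 8.54 ± 1.29 on the log2 scale (SD, n = 8), with a lowest gap of 6.93 and a highest of 10.37. That mean gap is 372-fold, and against A_72_P795270, the dimmest, it was 11.50 ± 1.39. For a probe not well above background, the lowest spot signal well above background on the same array was used in its place where that was higher, so the gap on that array is a lower limit under this background correction. The limits for the bright OPALIN probe over the second ran from 232-fold to 6786-fold by array, with a mean of 10.20 ± 1.87 on the log2 scale (SD, n = 8). Those for APOA5 ran from 226-fold to 6927-fold, with a mean of 10.19 ± 2.05. The size of these gaps depended on the background correction: the mean was 7.69 for OPALIN and 7.66 for APOA5 on median signals with no background subtraction, and 5.26 and 5.25 with normexp correction, which adds an offset of 50 to every signal.

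Among 1063 genes with 2 or more probes and the brightest well above background on all 8 arrays, the 2 brightest probes differed by a median of 1.15 on the log2 scale, or 2.22-fold, and 90% of these genes had a gap under 3.90. A gap as large as that of MBP was found in 11 of them (1.03%, MBP included), as large as that of APOA5 in 6 (0.564%) and as large as that of OPALIN in 5 (0.470%). These shares describe genes that were chosen for a bright probe and carry no test. The 6 spots nearest to each bright probe had a median percentile of 41.5 to 63.8 by array. That median describes the 6 spots together and not each spot alone. No probe sequence was used here, and what else a bright probe may bind was not tested.

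**Figure D3:**
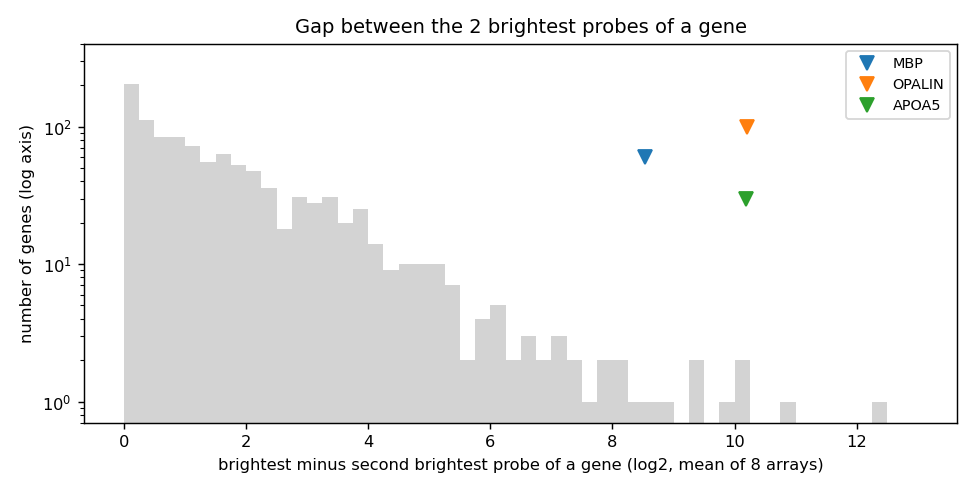
Number of genes (log axis) by the gap between their 2 brightest probes (log2, mean over 8 arrays), for the 1063 genes with 2 or more probes, with triangles at MBP, OPALIN and APOA5 whose height carries no meaning. The gaps of MBP (8.54), OPALIN (10.20, a mean of lower limits) and APOA5 (10.19, likewise) lie beyond those of nearly all other genes, whose median is 1.15.

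Across arrays, the bright MBP, OPALIN and APOA5 probes fell into the same 4 high and 4 low arrays. In each of them non-pregnant replicate 2 was the lowest of the high arrays, followed by non-pregnant replicate 3, pregnant replicate 3 and pregnant replicate 2. Between the highest low array and the lowest high array lay a step of 1.42 for MBP (2.68-fold), 1.87 for OPALIN (3.64-fold) and 2.27 for APOA5 (4.82-fold). Each set of 4 arrays held 2 pregnant and 2 non-pregnant sows, and 2 arrays of each slide.

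The split was also present in the processed signal before any scaling. The bright MBP probe gave 180093 to 250267 signal units on the 4 high arrays and 50566 to 65928 on the 4 low ones. For OPALIN these ranges were 17684 to 56628 and 1929 to 5760, and for APOA5 they were 23323 to 57806 and 1883 to 4861. OXT did not share the split: its widest step, 0.82, separated pregnant replicate 4 from the other 7 arrays.

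The spread over the 8 arrays was wide for the bright probes and narrow for the other MBP probes. The SD was 2.10 for APOA5, 1.93 for OPALIN, 1.20 for the bright MBP probe and 0.66 for OXT, against a median of 0.42 over the 23626 probes well above background on all 8 arrays. Smaller SDs were found for 99.7%, 99.5%, 95.5% and 79.5% of those probes. The 7 other MBP probes had SDs of 0.14 to 0.31, below that median, and 5 of the 7 had their lowest value on pregnant replicate 2, where the bright MBP probe had its highest.

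Likeness between probes was measured as Pearson's r over the 8 arrays and is given as a description, since all probes share the arrays and their scaling and the high and low arrays form 2 clusters, within which 4 arrays are too few to test a relation. The bright MBP and APOA5 probes had an r of 0.98, APOA5 and OPALIN 0.98, and MBP and OPALIN 0.95. Without pregnant replicate 2 these became 0.97, 0.98 and 0.93. With OXT, r was 0.78 for MBP, 0.74 for APOA5 and 0.74 for OPALIN, and 0.62, 0.57 and 0.54 without that array.

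Ranked over 1705 genes with their brightest probe, the genes most like the bright MBP probe included ISG12(A), of the interferon-inducible ISG12 family (r = 0.993), TP23 (0.986), APOA5 itself (0.982) and PTGDS, a prostaglandin D synthase (0.979). OPALIN was most like CLPS, the pancreatic colipase (0.993), the transcription factor gene FOXO3 (0.990), APOA5 (0.984), the adrenergic receptor gene ADRB1 (0.982) and FAAH, which breaks down fatty acid amides (0.982). APOA5 was most like CLPS (0.995), ISG12(A) (0.993), NR1I2, a nuclear receptor for foreign compounds (0.989), OPALIN (0.984) and FAAH (0.983). These 3 lists together named 11 genes, 9 of them other than the genes described here.

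Of those 9 genes, 4 had further probes. The second CLPS probe was well above background on all 8 arrays and followed the bright OPALIN and APOA5 probes (r = 0.95 with each). The second FAAH probe was likewise well above background on all 8 arrays, with an r of 0.85 with OPALIN and 0.86 with APOA5. The second probe of TP23 and both further probes of NR1I2 were well above background on 0 arrays, as were the second probes of OPALIN and APOA5.

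OXT resembled other genes: GRK7, a kinase of cone photoreceptors (0.987), the cytokine gene TNFSF12 (0.983), the chemokine gene CCL25 (0.980), SLC22A6, a renal organic anion transporter (0.973), and the muscle intermediate filament gene DES (0.968). DES had 3 further probes, each well above background on 0 arrays, and the second probes of GRK7 and SLC22A6 reached that on 5 and 2 arrays. An r above 0.95 linked the bright MBP probe to 241 probes, OPALIN to 235, APOA5 to 224 and OXT to 202, where the median over all 23626 probes was 27 and 90% of them had at most 230.

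The other MBP probes were like different genes, and mostly like fewer probes. The counts of probes with an r above 0.95 were 64 for A_72_P065001 and 1 to 12 for the remaining 6. The genes most like A_72_P065001 included BECN1, a regulator of autophagy (0.970), IL6ST, the shared receptor subunit of the interleukin-6 family (0.969), the oxidoreductase gene ERO1A (0.968) and the zinc exporter gene SLC30A1 (0.949). IL6ST, the leukotriene receptor gene CYSLTR2, DESI2 and the enolase gene ENO3 each stood among the 5 most alike genes of 3 of the 7 probes, with r between 0.83 and 0.97.

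**Figure D4:**
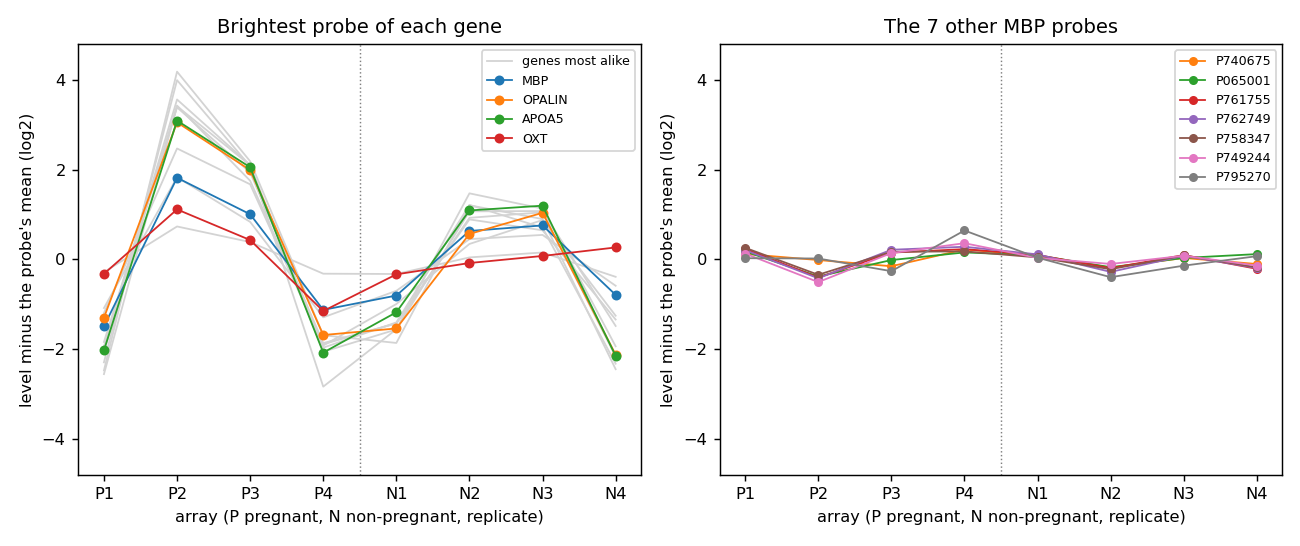
Level of each probe minus its own mean over the 8 arrays (log2), for the brightest probe of each gene and, in grey, the 9 other genes most like those of MBP, OPALIN and APOA5 (left) and for the 7 other MBP probes on the same axis (right); the lines only join the values of 1 probe, and P and N are the pregnant and non-pregnant replicates. MBP, OPALIN and APOA5 are high on replicates 2 and 3 of both groups, with SDs of 1.20 to 2.10, while the other MBP probes have SDs of 0.14 to 0.31.

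Whether the 7 other MBP probes followed each other was tested over their 21 pairs. Pearson's r ran from 0.28 to 0.99 with a median of 0.78, and 11 of the 21 pairs had an adjusted p under 0.05 (exact two-sided permutation test, n = 8, Benjamini-Hochberg over the 30 same-gene pairs of MBP, OPALIN and APOA5; raw p from 9.92e-05 to 0.522, adjusted p from 0.00238 to 0.522). Spearman's rho ran from 0.14 to 0.95 with a median of 0.69, and 6 pairs passed (exact permutation test, raw p from 0.00114 to 0.752, adjusted p from 0.0171 to 0.778). Over the 6289 same-gene pairs of named probes that were both well above background on all 8 arrays, MBP pairs included, the median r was 0.91. Genes with many probes gave more of those pairs than others. Without the 2 arrays farthest from the median of a pair's first probe, the median r of the 21 MBP pairs was 0.29. That step removes the ends of the range of a correlated probe, which by itself tends to lower r, and the 3 pairs among A_72_P761755, A_72_P762749 and A_72_P758347 stayed at 0.94 to 0.98. Without pregnant replicate 2 alone the median was 0.73. Pairs of 1 gene share the same RNA and scaling, so the 21 values are not independent.

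The bright MBP probe ran against the other 7. Its r was negative with 7 of 7, from -0.87 with A_72_P065001 to -0.55 with A_72_P758347, and from -0.81 to -0.24 without pregnant replicate 2. Without pregnant replicates 1 and 2, its 2 farthest arrays, r was -0.83 to -0.65 with A_72_P795270, A_72_P065001 and A_72_P740675. With A_72_P749244, A_72_P762749, A_72_P761755 and A_72_P758347 it was then only -0.19 to 0.007. The bright probes of OPALIN and APOA5 had an r of 0.28 and 0.27 with their second probes, which were at background. These 9 values are a description with no p, because the bright probes divide the arrays into 2 clusters; all 9 pairs counted among the 30 in the adjustment.

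Other genes of the same tissues were read at lower mean signals than the bright probes or were not detected. Of 29 oligodendrocyte and myelin genes, 8 had a named probe, and QKI, an RNA-binding protein, the transcription factor gene SOX10, CLDN11 and ASPA were well above background on all 8 arrays, at mean levels of -1.51, -1.53, -2.68 and -3.10. The myelin protein gene MOG was well above background on 5 arrays, BCAS1 on 2 and PMP2 on 0. The mean level of these 8 genes ran from -4.08 to -3.06 over the pregnant sows and from -4.17 to -3.30 over the others. On the 4 arrays where the bright MBP, OPALIN and APOA5 probes were high it was -3.27 (pregnant replicate 2), -3.38 (pregnant replicate 3), -3.96 (non-pregnant replicate 2) and -3.30 (non-pregnant replicate 3). On the 4 low arrays it was -4.08 and -3.06 (pregnant replicates 1 and 4) and -3.70 and -4.17 (non-pregnant replicates 1 and 4), so the 2 sets overlapped. Of 6 measured neuron and astrocyte genes, UCHL1 (-1.21) and SYN1 (-2.25) were well above background on all 8 arrays, and STMN2, GAD1 and AQP4 on 0.

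AVP, the sister gene of OXT that encodes vasopressin, was well above background on 0 arrays. Of 20 measured neuropeptide and pituitary hormone genes, 10 were well above background on 0 arrays and 5 on all 8: HCRT, the hypocretin precursor, at 3.11, LHB at 1.89, POMC at 0.51, CGA at 0.13 and AGRP at -2.08. The OXT probe, at 5.83, had a higher mean level than any of them. Over the 8 arrays HCRT ran from 0.94 to 5.99 and LHB from 0.37 to 4.87. POMC ran from 0.02 to 0.86, CGA from -0.91 to 1.04 and AGRP from -2.72 to -0.12. Among 7 genes of oxytocin processing and reception, LNPEP, the aminopeptidase that degrades oxytocin, was at 2.72, the peptidase gene PREP at 1.34, the vasopressin receptor gene AVPR2 at 1.17 and the convertase gene PCSK2 at -3.04, each well above background on all 8 arrays. The oxytocin receptor gene OXTR reached that on 5 arrays and the convertase gene PCSK1 on 0.

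Among the partners of APOA5, 14 of 24 apolipoprotein and triglyceride genes had a named probe, and 5 were well above background on all 8 arrays: APOA2 at 3.26, the liver X receptor gene NR1H3 at 2.04, ANGPTL4, an inhibitor of lipoprotein lipase, at -0.96, APOA1 at -1.53 and APOM at -1.56. HNF4A, LPL and PPARA were among the 4 that were well above background on 0 arrays. The other 5 reached that on some arrays. Among them APOA4, well above background on 4 arrays, had the widest range of the list, from -7.07 to 0.55. Of 19 measured hepatocyte genes, 8 were well above background on all 8 arrays, led by complement C3 at 3.02, ITIH2 at 1.87 and RBP4 at 0.49, and 5 on 0. Over the 8 arrays C3 ran from 1.42 to 5.95, ITIH2 from 0.06 to 4.66 and RBP4 from 0.22 to 1.12. The widest range of this list was that of ITIH4, well above background on 7 arrays, from -6.52 to -0.21. ALB, the albumin gene, had 19 probes, of which 1 was well above background on all 8 arrays, at -2.99. The mean level of the hepatocyte genes ran from -4.00 on pregnant replicate 1 to -2.33 on pregnant replicate 2 and from -3.26 to -3.13 in non-pregnant sows. Where the bright APOA5 probe was high, it was -2.33 and -3.10 (pregnant replicates 2 and 3) and -3.13 and -3.26 (non-pregnant replicates 2 and 3). On the low arrays it was -4.00 and -3.17 (pregnant replicates 1 and 4) and -3.24 and -3.25 (non-pregnant replicates 1 and 4). The 2 sets overlapped only through non-pregnant replicate 3. What part cells or RNA of these tissues had in the bright signals was not tested.

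Pregnant and non-pregnant sows were compared for every probe with limma, the comparison for which the series was designed. The fit took the 26481 probes that were well above background on every array of the pregnant group, of the non-pregnant group, or of both. No probe of the 4 genes was called: 0 of the 11 that entered were higher and 0 lower, where limma called 0% of all 26481 probes in either direction (412 higher and 198 lower at an unadjusted p under 0.05, smallest adjusted p = 0.524). The levels of the 2 groups overlapped for all 11, while they did not overlap for 417 of the 26481 probes (1.57%).

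The bright MBP probe had a mean of 9.01 ± 1.61 among pregnant sows and of 8.91 ± 0.86 among non-pregnant ones (SD, n = 4 each), a log2 difference of 0.10 (95% interval -1.55 to 1.76, limma adjusted p = 1.00). OPALIN was at 6.10 ± 2.36 and 5.07 ± 1.55, a difference of 1.03 (-1.48 to 3.53), and APOA5 at 5.83 ± 2.70 and 5.31 ± 1.67, a difference of 0.52 (-2.29 to 3.33). OXT was at 5.85 ± 0.98 and 5.81 ± 0.25, a difference of 0.04 (-0.95 to 1.03). The width of these intervals leaves room for differences of 2-fold either way in each of the 3 widest, and none of the intervals shows that the groups were alike.

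The 7 other MBP probes differed by -0.03 to 0.21 on the log2 scale, with the widest interval reaching from -0.38 to 0.81 for A_72_P795270. For the undetected second probes, which did not enter that fit, an exact two-sided permutation test over 70 splits gave p = 0.371 for OPALIN and p = 0.600 for APOA5, where the smallest p the design allows is 0.0286. Of the related lists, 0 genes were called in any. The median log2 difference was 0.08 over 4 oligodendrocyte genes, -0.08 over 6 neuropeptide genes, -0.11 over 4 genes of oxytocin processing, -0.09 over 7 apolipoprotein genes and 0.11 over 9 hepatocyte genes, beside -0.04 over all probes.

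**Figure D5:**
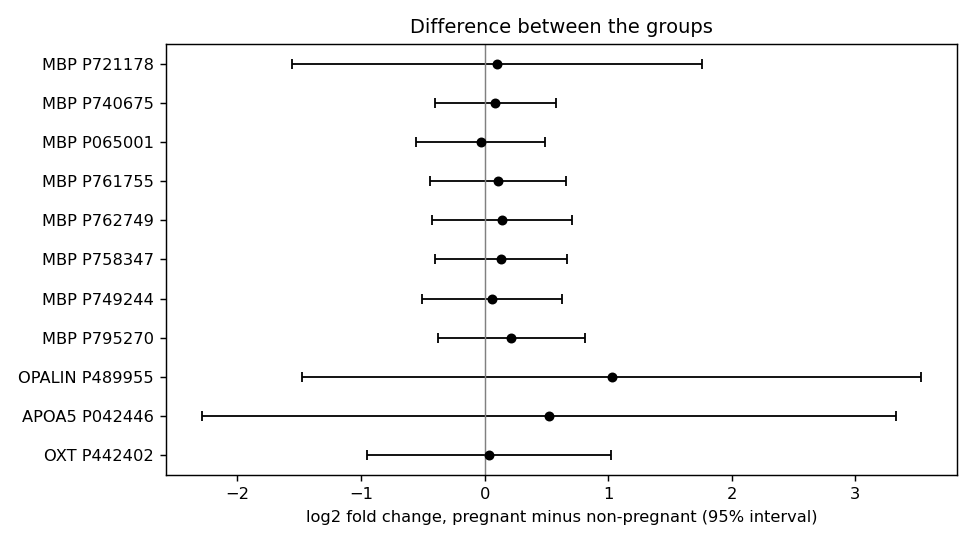
Log2 difference between pregnant and non-pregnant sows with its 95% interval from limma, for the 11 probes that entered the fit (4 sows per group, vertical line at 0). Every interval includes 0, and those of OPALIN (-1.48 to 3.53), APOA5 (-2.29 to 3.33) and the bright MBP probe (-1.55 to 1.76) are wider than those of the 7 other MBP probes.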

How the data were processed

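Feature Extraction (version 10.7.3.1, per the file headers) produced the deposited scanner files, whose processed signal is a linear spot intensity after background subtraction. A log2 table deposited by the authors, of unstated normalization and centring, was an alternative: each column followed log2 of its own array's signal (r of at least 0.99895, medians 5.02 to 5.03). Control spots and outlier spots were left out and spots of 1 probe averaged. Of 43603 probes, 215 were dropped because every spot was marked on some array. Each array was scaled to its 75th percentile.

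Of 5779 probes with a RefSeq transcript, 5461 received 1 of 2389 symbols from RefSeq's gene table (assembly Sscrofa11.1), which gave only names. Named genes are all probes of the 4 genes, the brightest and the detected or undetected defining genes of each list, and the 5 genes of highest r per probe; some of these are not reported here. The members and lists were chosen with earlier results of these data known.

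Groups were compared with limma 3.58.1 (lmFit, eBayes; R 4.3.3), two-sided, Benjamini-Hochberg, threshold 0.05, without a replicate block, since the labels do not say that numbers pair sows. Labels name separate sows, 1 array each. Independent normal values were simulated with the means and SDs of these 26481 probes. On them limma recovered 6% of 2-fold, 64% of 4-fold and 82% of 8-fold changes, with 12 false calls. The number of arrays limits the precision. Real probes share variation between arrays and the bright probes have wider SDs than most, so these shares are not the recovery for the bright probes. Other statistics used Python 3.11.15 with scipy 1.17.1. Normexp (offset 50), planned for mean signals, was run on the scanner files' median signals, a choice made after seeing the files.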

Additional observations from a re-analysis of the deposited data

Results flagged for a closer look

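In 3 MBP probes, pregnant replicate 2 lay far below the other 3 pregnant sows, which lay close together. It read -1.11 for A_72_P761755 (others -0.56 to -0.47), -1.71 for A_72_P762749 (others -1.08 to -1.004) and -1.78 for A_72_P758347 (others -1.27 to -1.18). The gap to the nearest sow was 0.866, 0.893 and 0.852 of the group's range, above Dixon's limit for 4 samples. The check was run on 26 groups, 2 for each of the 13 probes, and by chance 5% of groups would be marked; the 3 marks come from 1 array and from probes of 1 gene, so they are not independent. The same array had the lowest 75th percentile signal, 142.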

How the results depend on the processing

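No probe was called in any of the alternatives (0 higher and 0 lower; smallest adjusted p 0.154, with array weights). The difference between groups changed sign for the bright MBP probe under quantile normalization (-0.032), on slide 1 alone (-0.22) and in the deposited table (-0.015); for OXT under quantile normalization (-0.048), on slide 2 alone (-0.11) and in the table (-0.04); for A_72_P740675 on slide 1 (-0.073) and with array weights (-0.016); for A_72_P065001 with normexp (0.10), on slide 1 (0.020) and with array weights (0.017); and for A_72_P795270 on slide 1 (-0.067). With normexp it also turned for A_72_P761755 (-0.15), A_72_P762749 (-0.34), A_72_P758347 (-0.40), A_72_P749244 (-0.47) and A_72_P795270 (-0.68); normexp moved the median of all probes from -0.04 to -0.20. Leaving out each array in turn gave -0.49 to 0.62 for the bright MBP probe, -0.10 to 0.090 for A_72_P065001, -0.047 to 0.24 for A_72_P749244, 0.18 to 1.76 for OPALIN, -0.42 to 1.30 for APOA5 and -0.33 to 0.43 for OXT. The mean lower limits of the gaps shrank to 5.26 (OPALIN) and 5.25 (APOA5) with normexp, and to 7.69 and 7.66 on median signals with no background subtraction, settings that raise the dim probe's value by construction. The median r between the other MBP probes was 0.29 without the 2 farthest arrays.

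With the replicate number as a block, 0 probes were called and OPALIN differed by 1.03 (95% interval 0.06 to 1.99, limma adjusted p = 1.00), with the pregnant sow higher in 4 of 4 same-numbered pairs. Same-numbered sows deviated together at r of 0.22, 0.48, 0.43 and -0.12, and replicates 1 and 4 of the pregnant sows correlated better with the other's number. With the same block the intervals were -0.74 to 0.94 for the bright MBP probe, -0.57 to 1.62 for APOA5 and -0.98 to 1.05 for OXT. Whether the numbers mark the half-sib pairs is not given.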
